A study of Mus musculus with 6 samples.

Results

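The EGR and NR4A families are transcription factors that cells switch on within minutes to hours of a surface signal. This set of 10 mouse genes holds the EGR factors Egr1, Egr2 and Egr3, the NR4A factors Nr4a1, Nr4a2 and Nr4a3, the EGR corepressors Nab1 and Nab2, and the early response genes Ier2 and Ier3. Its members are all 18 probes annotated with these symbols among the 45281 probes of the array. The genes were chosen by a grouping of early response factors made with the TAT-CRE against mock log2 differences of these same arrays in view, so the members' differences are given as a description and are not a test.

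Splenic follicular B cells were taken with an antibody to CD23 from 3 C57BL/6 mice carrying yy1 f/f, a Yy1 gene flanked by sites that Cre recombinase cuts. The TAT-CRE group (3 arrays) was treated with a Cre protein that enters cells, to delete Yy1, and the mock group (3 arrays) was the mock-treated part of the same 3 spleens. Cells of both groups carried the floxed alleles and were grown for 72 hours in RPMI medium with LPS, IL4, OPI and 20% FBS. LPS signals through a Toll-like receptor and interleukin 4 through STAT6, and no ligand of the antigen receptor is named in the labels. Cells lacking the floxed alleles were not given TAT-CRE on any of these arrays, so effects of the Cre protein and of losing Yy1 cannot be told apart. Labels give neither age nor sex, and nothing on the share of cells in which Yy1 was cut.

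EGR proteins are zinc finger activators whose genes respond to ERK signalling through serum response factor. NAB1 and NAB2 bind EGR proteins and turn them into repressors, partly through the remodeller CHD4, and Nab2 is itself an EGR target, which closes a feedback loop. NR4A proteins are orphan nuclear receptors that antigen receptor signals induce through calcium and MEF2, and in lymphocytes EGR2, EGR3 and the NR4A factors are known to restrain activation.

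The promoter sequences shown are those of Egr2, the member whose level differed most, and of Nab1, a corepressor whose promoter holds EGR sites. Windows of 250 bases before a RefSeq start (build GRCm38.p6) were found for 7 of the 10 members, 11 windows in all. No window was found for Egr1, Egr3 or Ier2, so their promoters were not searched. Capitals mark the CArG box, bound by serum response factor, and TGACG, the core of the cAMP response element, on either strand in the Egr2 windows. In the Nab1 window they mark the EGR site GCGNGGGCG on either strand.
Egr2 promoter, chr10:67537619-67537868, plus strand: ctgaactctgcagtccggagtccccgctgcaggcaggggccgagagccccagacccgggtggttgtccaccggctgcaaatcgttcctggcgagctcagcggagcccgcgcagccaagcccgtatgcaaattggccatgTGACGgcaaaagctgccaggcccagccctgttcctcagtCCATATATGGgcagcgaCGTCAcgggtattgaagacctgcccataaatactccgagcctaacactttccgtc
Egr2 upstream promoter, chr10:67537316-67537565, plus strand: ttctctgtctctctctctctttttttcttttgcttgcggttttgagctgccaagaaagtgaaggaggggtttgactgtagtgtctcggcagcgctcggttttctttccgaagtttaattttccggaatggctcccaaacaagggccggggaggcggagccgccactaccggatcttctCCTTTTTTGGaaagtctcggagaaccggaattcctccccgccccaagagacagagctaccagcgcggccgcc
Nab1 promoter, chr1:52500449-52500698, minus strand: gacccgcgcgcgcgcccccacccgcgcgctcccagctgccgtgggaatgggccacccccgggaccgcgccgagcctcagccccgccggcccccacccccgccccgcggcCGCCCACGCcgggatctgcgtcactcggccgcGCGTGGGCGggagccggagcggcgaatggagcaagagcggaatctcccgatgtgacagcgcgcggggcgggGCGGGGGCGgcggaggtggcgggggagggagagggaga

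The CArG box began 72 bases before the start in each of the Egr2 windows shown, and TGACG lay 111 and 55 bases before the start in the first. TGACG was also present 4 times in each window of Nr4a1, Nr4a2 and Nr4a3 and 1 time in that of Nab1, and the EGR site 1 time in each window of Nr4a1 and Nr4a2. The windows of Nab2 and Ier3 held neither TGACG nor the EGR site. A CArG box was present in 4 of 5 Egr2 windows, several of which overlap, and in 0 of the other members with a window. Egr1, Egr3 and Ier2 had no window, so Egr2 cannot be set against them here. A CArG box was held by 1.47% of all 32851 windows, TGACG by 17.8% and the EGR site by 4.7%. The Nab1 window held 3 EGR sites, at 141, 109 and 38 bases before the start. YY1 is known to bind at some CArG boxes through the core letters CCAT, which open the CArG box of the first Egr2 window. Of the 488 CArG boxes in all windows, 42.8% opened with CCAT on either strand. The longer YY1 motif AANATGGC (3.91% of all windows) and the NR4A site AAAGGTCA (1.34%), searched on both strands, had 0 matches in the members' windows. A match in a window is letters only, since no binding was measured here.

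Yy1, the targeted gene, was lower after TAT-CRE in every mouse. Its probe read 153.2, 140.4 and 133.8 on the TAT-CRE arrays of mice 1, 2 and 3, against 455.0, 408.9 and 439.2 on the mock arrays, in the authors' intensity units. No TAT-CRE array was above background, so Yy1 was at least 2.49-fold lower. Its limma adjusted p of 6.42e-06 belongs to the fitted log2 difference of -2.80 and not to that bound. Yy1 passed the background filter through the mock arrays alone. Which part of Yy1 is removed is not given in the labels and the probe was not placed in the gene, so its fall is a measure of that transcript stretch alone. Of 9942 genes tested, 790 were higher (7.95%) and 796 lower (8.01%) at an adjusted p under 0.05. Leaving out any 1 TAT-CRE array gave 361 to 398 higher and 388 to 418 lower. Each array had 39.9% to 44.5% of its probes above background. Of the B cell markers, 7 were above background in at least 3 arrays, among them Fcer2a, which encodes the CD23 used to select the cells (7561 to 8585 in TAT-CRE and 7793 to 11192 in mock cells), and their summed intensity ranged from 40680 to 44880 in TAT-CRE and from 34530 to 46650 in mock cells. Cd79b is the largest part of that sum. Of the 7, 2 fell: Cd72 (values given with the tolerance genes) and the adaptor gene Blnk. Blnk read 1434.1 to 1598.7 in TAT-CRE and 1761.6 to 2780.6 in mock cells (log2 difference -0.67, limma adjusted p = 0.0351). Of 9 T cell markers on the array, 4 passed the background filter and none was called, with sums of 9585 to 11710 in TAT-CRE and 9062 to 11740 in mock cells. Cd8b1 averaged 4904 ± 368 in TAT-CRE and 4114 ± 676 in mock cells, and Thy1 averaged 5290 ± 1255 in TAT-CRE and 5859 ± 858 in mock cells (SD, n = 3 each), while Cd2 and Cd4 were dim and Cd3d, Cd3e and Cd3g, which define T cells, did not pass the filter. Of 10 myeloid markers, the dim Csf3r and Adgre1 passed the filter and were not called, and Lyz2, Csf1r and Cd14 did not. Markers of other lists that rose were Prf1, Siglech and Jchain, and the markers were named after their values were seen. Prf1, which encodes perforin, read 7622 to 8735 in TAT-CRE and 2288 to 3934 in mock cells (log2 difference 1.51, limma adjusted p = 0.000602). Siglech, a plasmacytoid dendritic cell marker, rose by 1.16 on the log2 scale (adjusted p = 0.000765), while Zbtb46, the other dendritic marker tested, differed by -0.42 and did not pass. Jchain, which plasma cells express, rose by 0.64 (adjusted p = 0.0305), and the 3 other plasma cell markers tested were not called. The other NK markers measured (Ncr1, Klrb1c, Klrd1 and Klrk1) and the dendritic markers Itgax, Flt3, Xcr1 and Clec9a did not pass the filter. Whether such cells had a part in any difference below was not tested.

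Egr2 stood apart from the other members. It was the 1 member gene of 7 tested that passed the threshold as lower, where 8.01% of all genes did, and 0 of 7 passed as higher, where 7.95% of all genes did. By probe, 1 of 13 member probes tested passed as lower, against 7.03% of all probes. Since the members were chosen with this comparison in view, nothing is read from these shares. The median log2 difference of the 7 genes was -0.17, against 0.02 over all genes.

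**Figure D1:**
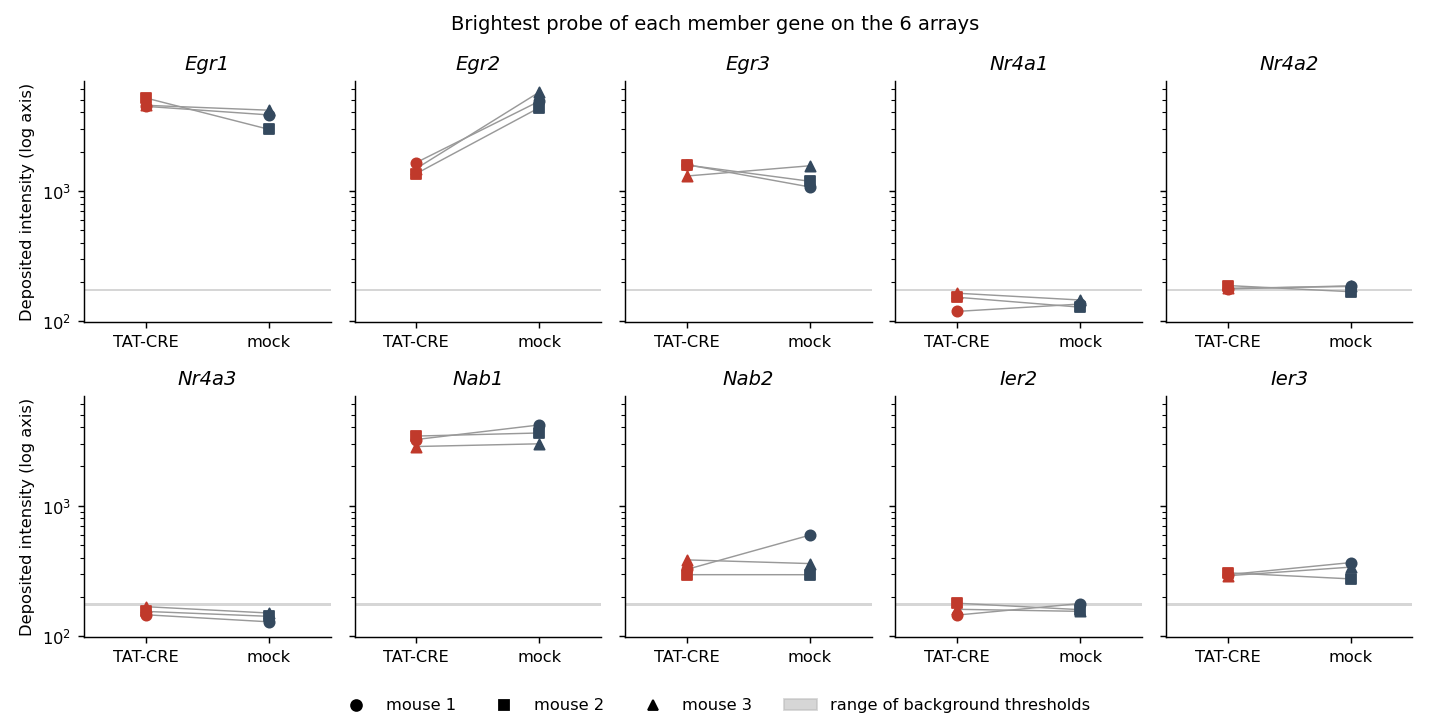
Deposited intensity (log axis) of the brightest probe of each of the 10 genes, with TAT-CRE arrays on the left and mock arrays on the right of each panel, a symbol per mouse and lines joining the arrays of 1 mouse. The grey band is the range of the background thresholds of the 6 arrays (169.2 to 178.2). Egr2 is lower on each TAT-CRE array, Nr4a1 lies under the band, and levels compare within a panel only.

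Egr2, a zinc finger factor of the EGR family known for restraining T and B cell activation, read 1647.3, 1355.5 and 1482.2 on the TAT-CRE arrays of mice 1, 2 and 3, against 4881.1, 4354.3 and 5733.1 on the mock arrays. The groups were far apart, with every TAT-CRE array under every mock array, and all 6 arrays lay well above background. Groups that do not overlap, in either direction, were found for 34.9% of all genes. The intensity averaged 1495 ± 146 in TAT-CRE and 4990 ± 696 in mock cells (SD, n = 3 each). On the background-corrected log2 scale used for fitting, Egr2 differed by -1.80 (SE 0.18, 95% confidence interval -2.18 to -1.42), which is 3.48-fold lower. By mouse the differences were -1.62, -1.75 and -2.02, so the fall was of like size in each pair of arrays. In bulk RNA, fewer cells with the transcript and less transcript per cell cannot be told apart. In order of size of fall Egr2 held rank 32 among the 9942 genes. Egr2 has a single probe on the array, so no other probe bears on its value. Over 18 alternative settings its difference stayed between -1.91 and -1.69 and passed in each.

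Egr1, the best known member of the family and a standard readout of ERK signalling, did not go with Egr2. It read 4449.7, 5161.5 and 4532.9 in TAT-CRE cells of mice 1, 2 and 3, against 3825.5, 2962.8 and 4156.7 in mock cells. The groups did not overlap, which holds for 34.9% of all genes, and the highest mock array lay close under the lowest TAT-CRE array. The log2 difference was 0.39 (SE 0.18, 95% confidence interval -0.001 to 0.78) in the fit over all probes and did not pass. In the fit over genes the interval was 0.009 to 0.77, which leaves out 0, and the adjusted threshold was not passed there either. By mouse it was 0.22, 0.82 and 0.13, so mouse 2 gave most of it, and without mouse 2 it was 0.18.

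Egr3, which overlaps with Egr2 in lymphocyte tolerance, was measured by a bright and a dim probe. The bright probe read 1589.9, 1579.5 and 1299.8 in TAT-CRE cells, against 1071.0, 1184.8 and 1558.1 in mock cells. The groups overlapped, because mouse 3 went the other way from mice 1 and 2 (log2 differences 0.61, 0.45 and -0.28). Its group difference was 0.26 (95% confidence interval -0.16 to 0.68). The dim probe lay near background, at 179.6, 157.3 and 191.5 in TAT-CRE against 223.7, 169.7 and 185.9 in mock cells, and differed by -0.26 (95% confidence interval -0.74 to 0.23). Neither Egr3 probe passed, and their signs differ. Without mouse 3 the bright probe differed by 0.53.

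**Figure D2:**
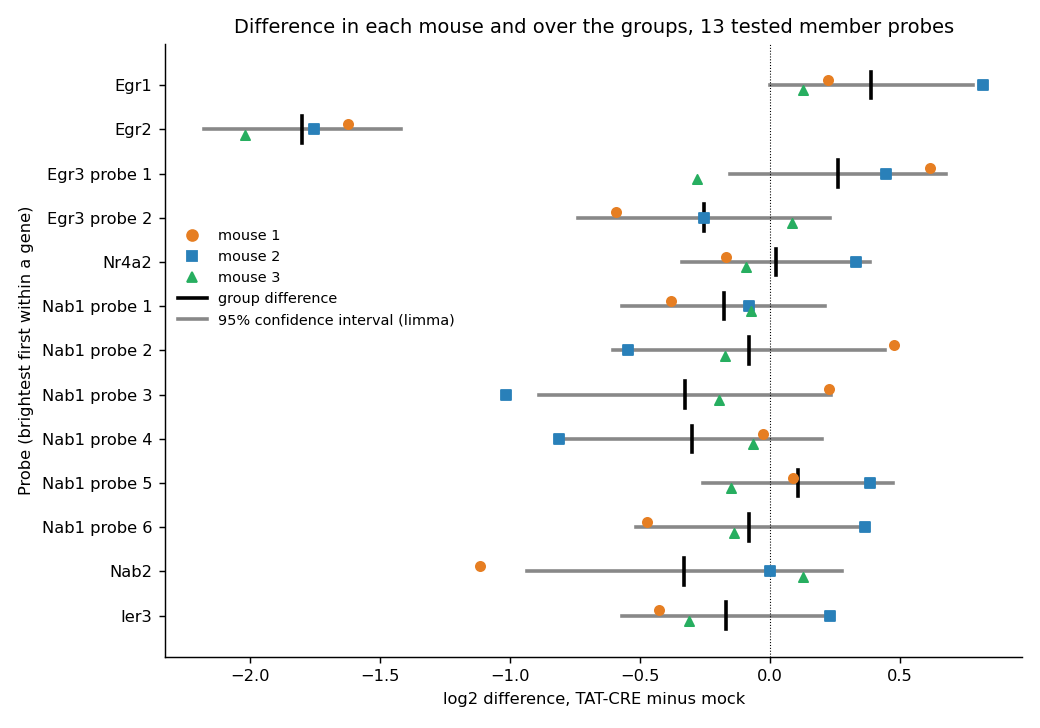
Log2 difference, TAT-CRE minus mock, of the 13 member probes tested, with a symbol for each mouse, a black bar for the group difference and a grey line for its 95% confidence interval in the limma fit over all probes. The interval of Egr2 (-2.18 to -1.42) lies clear of 0, while those of the other 12 probes reach 0 or cross it.

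The NR4A genes gave little signal at 72 hours in either group. Nr4a1, which encodes NUR77, a widely used mark of antigen receptor signalling, read 119.0, 152.8 and 164.1 in TAT-CRE and 135.5, 128.2 and 145.5 in mock cells, under background on all 6 arrays. The 3 probes of Nr4a3, which encodes NOR1, were likewise under background on every array, between 132.6 and 168.2 in TAT-CRE and between 128.7 and 150.3 in mock cells. No fold is given for these 4 probes, and at this signal a difference was not detectable.

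Nr4a2, which encodes NURR1, lay at the edge of detection. It read 176.8, 187.9 and 179.1 in TAT-CRE cells (above background on 3 of 3 arrays), against 187.0, 168.5 and 184.9 in mock cells (above it on 2 of 3). The groups overlapped almost fully, and the log2 difference was 0.02 (95% confidence interval -0.34 to 0.39), with mouse 2 positive and mice 1 and 3 negative.

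Nab1, the EGR corepressor present in many cell types, was measured by 6 probes, of which none passed. The brightest read 3220.6, 3422.5 and 2845.9 in TAT-CRE cells, against 4167.0, 3615.0 and 2986.0 in mock cells. It was lower in TAT-CRE cells of each mouse, by -0.38, -0.08 and -0.07 on the log2 scale, with overlapping groups and a group difference of -0.18 (95% confidence interval -0.57 to 0.21). The next brightest read 2327.5, 2190.8 and 1657.6 in TAT-CRE and 1699.8, 3158.8 and 1860.0 in mock cells. There the mock array of mouse 2 was far above the rest, and the same array was highest for 2 further probes, at 1090.1 against 510.4 to 703.9 in TAT-CRE cells and at 709.3 against 393.5 to 451.3 in TAT-CRE cells. In the 2 dimmest Nab1 probes mock 2 was the lowest of the 6 arrays instead, at 302.7 and 204.2. Over the 6 probes the group differences lay between -0.33 and 0.11. The transcripts that each probe reads were not compared here.

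**Figure D3:**
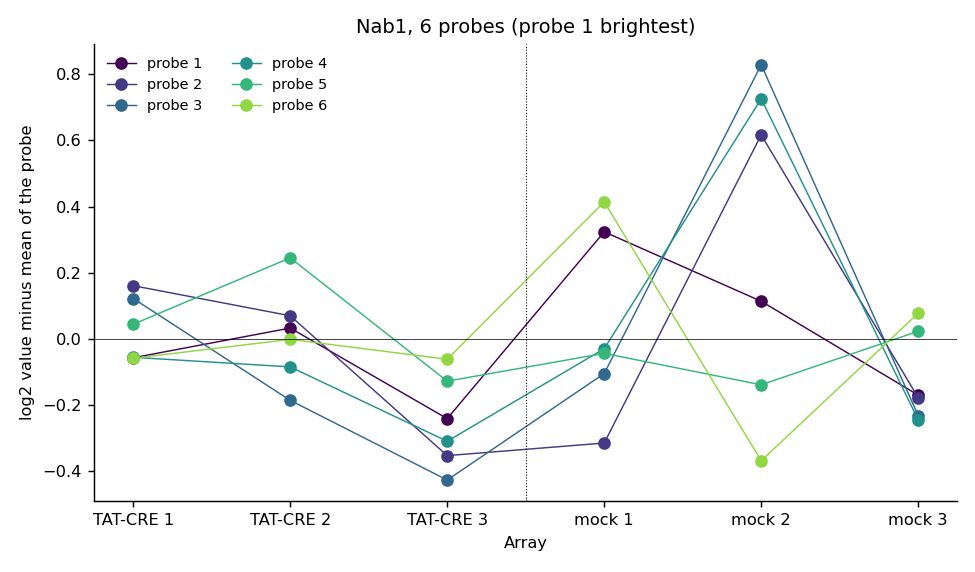
Log2 value of each Nab1 probe minus its own mean over the 6 arrays (vertical axis), with TAT-CRE arrays left of the dotted line and mock arrays right of it, and a line for each probe. Probes 2, 3 and 4 peak on mock 2, probes 5 and 6 are lowest there, and probe 1 peaks on mock 1.

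Nab2, the corepressor that EGR proteins induce, read 324.5, 295.9 and 384.3 in TAT-CRE cells, against 595.0, 295.8 and 360.1 in mock cells. The mock array of mouse 1 alone was high, and the remaining 5 arrays overlapped. The log2 difference was -0.33 (95% confidence interval -0.94 to 0.28), from -1.12, 0.00 and 0.12 by mouse. Without mock 1 it was 0.04, so the sign rests on that array.

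The early response genes Ier2 and Ier3 were dim. Ier2 read 145.0, 178.8 and 160.6 in TAT-CRE and 177.8, 159.5 and 154.8 in mock cells, above background on 1 TAT-CRE array and 0 mock arrays, and was not tested. Ier3, which encodes IEX-1, a modulator of cell survival, read 295.9, 306.0 and 290.4 in TAT-CRE cells, against 366.3, 274.7 and 338.2 in mock cells. All TAT-CRE arrays lay between the lowest and the middle mock array, and the log2 difference was -0.17 (95% confidence interval -0.57 to 0.23). The intervals of the 12 tested probes other than that of Egr2 run as far as -0.94 and 0.78 on the log2 scale, so a missed threshold does not show that these genes stayed level.

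The other genes of the pathway were counted in 7 lists and read against the 7.95% of all genes called higher and the 8.01% called lower. Among 47 other early response genes tested, 4 rose and 3 fell, with a median log2 difference of 0.01. The list held 4 called genes without TAT-CRE 2 or TAT-CRE 3 and 11 without mock 2. Atf3, a stress-induced factor of the ATF family, fell most and kept apart in each mouse, at 439.0, 395.8 and 357.1 in TAT-CRE and 1152.4, 1010.9 and 818.5 in mock cells (log2 difference -1.56, SE 0.18, limma adjusted p = 0.000272). Klf2, a quiescence factor, rose by 0.90, the survival gene Mcl1 rose by 0.77 and the transcription factor gene Myc fell by 0.98 (adjusted p = 0.00293, 0.00836 and 0.0122). The call of Mcl1 was lost on leaving out any 1 mouse and that of Klf2 without mouse 3. Myc did not pass once TAT-CRE 2 was left out (adjusted p = 0.0564, with 0.00307 to 0.0856 over its alternatives). Egr4, the remaining EGR gene, did not pass the background filter.

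Few genes of the signalling input to EGR genes passed. Of 27 genes of the RAS, ERK and serum response factor list, 1 rose and 0 fell, with a median of 0.10. The 1 was Dusp5, an ERK phosphatase that ERK itself induces, at 968.3, 1216.6 and 1320.8 in TAT-CRE and 836.7, 636.1 and 616.1 in mock cells (log2 difference 0.84, SE 0.19, limma adjusted p = 0.0129). Its call was lost without TAT-CRE 2, TAT-CRE 3 or mock 3 (adjusted p up to 0.0680, with 0.00244 to 0.190 over all its alternatives). The other phosphatase genes of its family in the list, Dusp4, Dusp6 and Dusp7, differed by -0.845, 0.096 and -0.269 and did not pass. Dusp4 was lower in each mouse, by -0.808, -0.800 and -0.926. When mice were fitted as blocks the list held 2 called genes, as it did on leaving out mock 1, and it held 3 on leaving out mock 2, and 5 of its genes were higher and 1 lower at an unadjusted p under 0.05.

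In the calcium, calcineurin, NFAT and MEF2 list, 5 of 29 genes rose and 0 fell, with a median of 0.16. Rcan3, of the calcineurin regulator family, read 1542.0, 1291.3 and 1372.9 in TAT-CRE and 663.2, 673.8 and 916.2 in mock cells (log2 difference 1.01, SE 0.18, limma adjusted p = 0.00342), and its other probe rose by 0.73. Rcan1, a calcineurin inhibitor that NFAT induces, rose by 0.89 and was higher in each mouse by 0.92, 0.93 and 0.81 (adjusted p = 0.00454), with the call lost without mouse 3. Nfat5, the osmotic stress factor, rose by 0.69 at the probe used, while its other probes differed by 0.34 and -0.05 and did not pass. The call of Nfat5 was lost without TAT-CRE 3 (adjusted p = 0.0598, with 0.00311 to 0.135 over its alternatives). For Mef2b, a MEF2 factor of germinal centre B cells, the probe used rose by 0.61 and the others differed by -0.58 and -0.26 without passing, so its direction is uncertain, and its call was lost without any 1 array other than mock 2. Hdac4, a deacetylase that binds MEF2 and was named after its value was seen, rose by 0.65 at the probe used (adjusted p = 0.0352). The median difference over all tested Hdac4 probes was smaller, at 0.318. Hdac4 lost its call without any 1 array other than mock 2. Without TAT-CRE 1, 2 or 3 the list held 3, 3 and 2 called genes.

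Of 12 genes of CREB and its coactivators, 1 rose and 1 fell, with a median of 0.07. The count was 0 without TAT-CRE 1 or TAT-CRE 2, 1 without TAT-CRE 3 or mock 3 and 5 without mock 1. Creb1, the cAMP response factor, fell by 0.72 (adjusted p = 0.0160), with its other probe at -0.37 and not passing. Creb1 was called in 12 of 18 alternatives. Its call was lost without TAT-CRE 1 or 2, without any 1 mouse and with no filter on dim probes. Pde4d, a cAMP phosphodiesterase, rose by 0.56 at the probe used (adjusted p = 0.0286). Pde4d was called in 9 of 18 alternatives and lost its call without any TAT-CRE array or without mock 3, among others. Its 2 other probes differed by -0.10 and -0.12, so its direction is uncertain.

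Partners of the NAB corepressors formed the list with the lowest median of the 7. Of 11 genes of CHD4-containing repressor complexes, 4 fell and 0 rose, with a median of -0.24. Chd4, the remodeller that NAB2 binds, read 1133.6, 1621.9 and 1542.8 in TAT-CRE and 2062.9, 2525.2 and 2281.4 in mock cells (log2 difference -0.73, SE 0.19, limma adjusted p = 0.0204). The other Chd4 probes differed by -0.70, -0.45 and 0.11, and none of those passed. Mta3 fell by 0.65, Mta1 by 0.69 and Chd3 by 0.68 on the log2 scale (adjusted p = 0.0181, 0.0305 and 0.0256), all subunits of the same type of complex. The other Mta3 probe differed by -0.26, with mouse 1 positive at 0.20, and did not pass. These 4 calls are fragile: leaving out TAT-CRE 1, 2 or 3 left 0, 1 and 1 of them, and leaving out mock 2 left 2.

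NR4A partners and corepressors gave 1 lower of 8 tested, with a median of -0.03. It was Rxra, the retinoid receptor that pairs with NUR77 and NURR1. Rxra read 141.3, 148.1 and 158.2 in TAT-CRE cells, under background on all 3 arrays, against 188.0, 186.8 and 191.2 in mock cells. The fall was thus at least 1.08-fold. Rxra passed the filter through the mock arrays alone, so the filter itself favoured a call as lower. Its limma adjusted p of 0.00830 belongs to the fitted log2 difference of -0.776 and not to that bound. The call was lost without TAT-CRE 1 (0.0519) and on the authors' log2 values (0.0596), with 0.00379 to 0.0611 over its alternatives.

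Genes linked to EGR2, EGR3 or NR4A in tolerant or chronically stimulated lymphocytes went both ways. Of 21 tested, 3 rose and 2 fell, with a median of -0.04. Cblb, a ubiquitin ligase of T cell anergy, rose by 0.95 and the cytokine signal inhibitor Socs3 by 1.01 (limma adjusted p = 0.00745 and 0.00354). The other, dim Cblb probe differed by 0.46 and did not pass, and the call of Cblb was lost without mouse 2. Cd72, an inhibitory coreceptor of B cells, read 1345.3, 1329.7 and 1322.8 in TAT-CRE and 3657.2, 2752.1 and 2195.0 in mock cells and fell by 1.13 (adjusted p = 0.00247). Ctla4, an inhibitory receptor, fell by 0.79 and Cd274, which encodes the ligand PD-L1, rose by 0.74 (adjusted p = 0.00910 and 0.0131), the last named after its value was seen. The calls of Ctla4 and Cd274 were lost without TAT-CRE 2 (adjusted p = 0.0507 and 0.0644), and that of Cd274 without TAT-CRE 3 as well. Over its alternatives the adjusted p ran from 0.00419 to 0.0786 for Ctla4 and from 0.00630 to 0.131 for Cd274. With the mouse as a block, 9 of these genes were called. Without TAT-CRE 2 the list held 3.

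**Figure D4:**
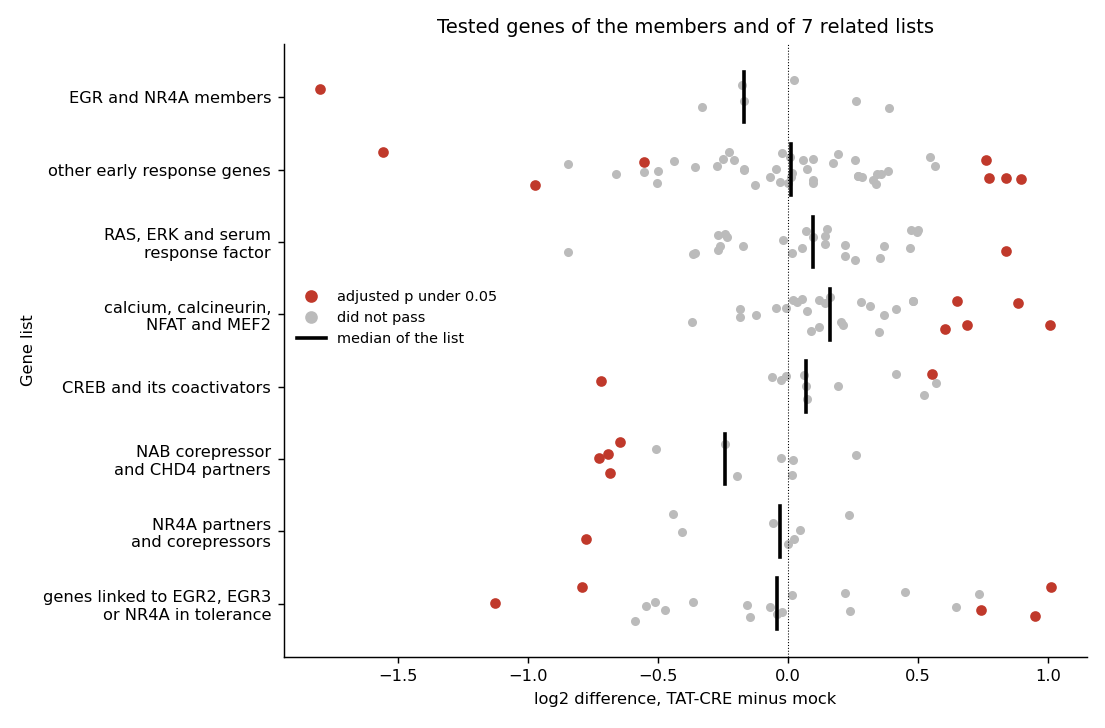
Log2 difference, TAT-CRE minus mock, of each tested gene in the member set and the 7 related lists, 1 point per gene, red where the adjusted p was under 0.05, with a black bar at the median of each list. Egr2 at -1.80 and Atf3 at -1.56 are the lowest points shown, and the medians lie between -0.24 and 0.16. Vertical spread within a list carries no value.

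Likeness of profile was measured as Pearson's r of log2 values over the 6 arrays, as a description, and all genes share those arrays and their 2 groups. The mean standardised profile of Egr1, Egr2 and Egr3 was most like that of Zfp248 (r = 0.986), Gm21992 (0.968) and Mettl15 (0.966). In that mean the EGR genes' opposite signs offset each other. For Nr4a2, the only NR4A gene tested, the nearest were Sart3 (r = 0.985), Zfp595 (0.985) and Tlr4 (0.977). Egr2 on its own, looked at after its values were seen, was nearest to Mrps18b of the mitochondrial ribosome (r = 0.998), the ARF exchange factor Cyth4 (0.997) and the fatty acid oxidation isomerase Ech1 (0.996). Mrps18b read 1331.2, 1101.5 and 1181.6 in TAT-CRE and 3676.4, 3655.5 and 4154.3 in mock cells, and Ech1 read 629.0, 491.6 and 470.2 in TAT-CRE and 2081.0, 1760.0 and 2321.7 in mock cells. Their log2 differences were -1.75 and -2.17. That of Cyth4 was -0.55 at the probe used, with a median of -0.794 over all its tested probes.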

How the data were processed

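RNA of 6 samples was measured on single-colour Illumina bead arrays from biotin-labelled cRNA, per the labels. The submitters' processing notes name GenomeStudio 1.8. The authors deposited linear intensity values. Their sorted columns differ by at most 2.1, so they had been quantile normalized, and array medians of 161.4 to 161.5 show no background subtraction. The 12 columns of the other table match no sample's labels and were not used.

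From these intensities, limma 3.58.1 (R 4.3.3) was used for a normexp correction with offset 16, then quantile normalization, and values were put on the log2 scale. Background per array was the 95th percentile of 1504 olfactory and vomeronasal receptor probes, and probes above it on at least 3 arrays were kept (15701 probes, 9942 genes, each gene by its brightest probe). This stands in for detection p-values. A fold given as a lower bound sets the brighter group's mean log2 intensity against, per dim array, the higher of the lowest signal above background and the value of the probe itself. Probe symbols came from the platform annotation, in which 34885 probes have 1 gene, 18 several and 10378 none. The comparison of TAT-CRE against mock used limma's lmFit and eBayes (two-sided). P-values were adjusted by Benjamini-Hochberg over the genes tested, or over the probes tested for single probes, with a threshold of 0.05. The number of arrays limits the precision.

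Per the labels, cells of each spleen went to both groups. Arrays of the same replicate number were taken as the pair of 1 mouse, and that match rests on the number alone. Deviations of the paired arrays from their group means correlated at 0.104, 0.0349 and 0.0356. The fit without the mouse is reported, and the mouse as a block is an alternative.

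The members, the lists and the tests were chosen with earlier results of these data known. Genes named are Yy1, all members, up to 4 called genes of smallest p in each list and the 3 nearest profiles. Hdac4, Cd274, the cell markers, Mrps18b, Cyth4 and Ech1 were added after their values were seen. Fits were tested on simulated data first. Plots were made in Python 3.11.15 with matplotlib 3.10.9. List genes absent from the annotation table were not analysed here.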

Additional observations from a re-analysis of the deposited data

How the results depend on the processing

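Over 18 alternatives, Egr2 stayed called, with differences of -1.91 to -1.69, and Egr1, Egr3, Nab1, Nab2, Ier3 and Nr4a2 stayed uncalled (17 alternatives for Nr4a2, which the filter on all 6 arrays removes). The member count was 1 under each setting. The sign of Nr4a2 turned with array weights (-0.021) and without TAT-CRE 2 (-0.031), mock 2 (-0.078) or mouse 2 (-0.131), and its values with an array or a mouse left out ran from -0.131 to 0.118. That of Nab2 turned without mock 1 (0.039) or mouse 1 (0.063), within a range of -0.614 to 0.063. The median over all probes was -0.256 for Mef2b and -0.104 for Pde4d, against rises at the probe used. The cause was not tested. Yy1 stayed called lower in each of its 17 alternatives, and the filter on all 6 arrays removes it.

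With no filter on dim probes 370 genes were higher and 391 lower, and 356 and 458 probes. At an adjusted p of 0.01 these were 307, 321, 341 and 425. Leaving out an array or a mouse gave 174 to 763 genes higher, 185 to 813 lower, 188 to 889 probes higher and 255 to 1038 lower.

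The called genes per list moved as follows. The early response list gave 11 with offset 50 and 3 at 0.01. The RAS list gave 2 with offset 50, the filter on all 6 arrays, the replicate block or the robust trend, 3 with array weights or every probe and 0 at 0.01. The calcium list gave 3 with no filter, 10 with every probe and 2 at 0.01. The CREB and NAB partner lists each gave 0 with no filter and 0 at 0.01. The NR4A partner list gave 0 on the authors' log2 values and with the filter on all 6 arrays. The tolerance list gave 9 with the mouse as a replicate block, which is the paired fit. That block changed no call of a member. Leaving out an array or a mouse gave 1 to 11 early response, 0 to 3 RAS, 1 to 6 calcium, 0 to 5 CREB, 0 to 4 NAB partner, 0 to 1 NR4A partner and 3 to 6 tolerance genes.

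Of 35 single-gene results, 19 had a call change under some setting. The probes of Nr4a1, Nr4a3 and Ier2 lie too near background for any comparison.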
